A study of Bos taurus and Sus scrofa with 10 samples.

Results

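In the pig preimplantation embryo, 51 genes had a transient peak at the 8-16 cell stage or the morula: they were low in the oocyte and the 2-4 cell embryo, high in 1 or both of the next stages, and low again in the blastocyst. They were picked from the pig expression table among the 16178 rows that carry a gene symbol and lie outside the mitochondrial genome and the Y chromosome (the table has 21867 rows in all). For each row M is the larger of the 8-16 cell and morula levels, and R is the largest of the oocyte, 2-4 cell and blastocyst levels. A row was kept when M was 20 or more and (M + 1)/(R + 1) was 8 or more, with levels as a library's reads for that row scaled to a total of 1000000 (RPM). That rule selected 0.315% of the rows with a symbol, or 0.925% of the 5515 such rows with M of 20 RPM or more. Because the pig values chose the genes, those values describe them and are not tested.

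RNA sequencing of total RNA covered oocytes, 2-4 cell embryos, 8-16 cell embryos, morulae and blastocysts of pig (Sus scrofa) and of cow (Bos taurus). No treatment, genotype, breed, parental age or number of pooled embryos is given in the labels. Each stage of each species had 1 library, so no difference below has a replicate check, and every interval covers counting error only. The pig libraries held between 3002751 reads (morula) and 4138616 reads (2-4 cell), and a count of 0 in them allows a level of up to between 0.725 and 0.999 RPM (3 reads). The mitochondrial share of reads was 10.9% in the 8-16 cell, 16.3% in the morula and 18.6% in the blastocyst library. In whole embryos, fewer cells of a type and less RNA per cell cannot be told apart.

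After fertilisation an embryo first lives on RNA stored by the oocyte, and its own genome is activated during the cleavage divisions while the stored RNA is degraded. At the morula stage the cells flatten against each other and become polarised, and at the blastocyst stage an outer trophectoderm pumps fluid around an inner cell mass. Some transcripts known from other mammals appear around genome activation and are gone again before the blastocyst, several regulators of genome activation among them. The summed levels of oocyte markers and of trophectoderm markers followed this order of events. That of 19 oocyte markers was 11150 RPM in the oocyte, 5383 RPM in 8-16 cell embryos, 330.0 RPM in the morula and 60.6 RPM in the blastocyst. That of 19 trophectoderm and blastocyst markers was 881 RPM in the morula and 11520 RPM in the blastocyst. KRT8 and KRT18 made up 3629 and 2681 RPM of the latter. Inner cell mass and primitive endoderm markers were mixed, with sums of 428 RPM in the morula and 1017 RPM in the blastocyst. At that step 5 of 18 compared were higher by 2 or more in log2(RPM + 1) and 5 lower (14.4% and 14.3% of all rows). NANOG, SOX2 and PRDM14 had 0 reads in the blastocyst.

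As a group the 51 genes took 192 RPM in the oocyte library, 305 RPM in the 2-4 cell, 1317 RPM in the 8-16 cell, 10410 RPM in the morula and 413 RPM in the blastocyst library. A single gene, ZDHHC19, made up 3938 RPM of the morula sum, and without it the same sums were 167, 281, 1235, 6473 and 338 RPM. The median member stood at 0.296, 1.45, 12.3, 61.9 and 0.536 RPM in the 5 libraries. Thus the typical member was close to the detection limit at both ends of the series, and the morula library carried most of its reads. In the oocyte library 24 of the 51 had 0 reads, in the blastocyst library 19 had 0 reads, and 11 had 0 reads in both. The level that R stands for came from the 2-4 cell library in 23 genes, from the blastocyst library in 19 and from the oocyte library in 9.

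**Figure D1:**
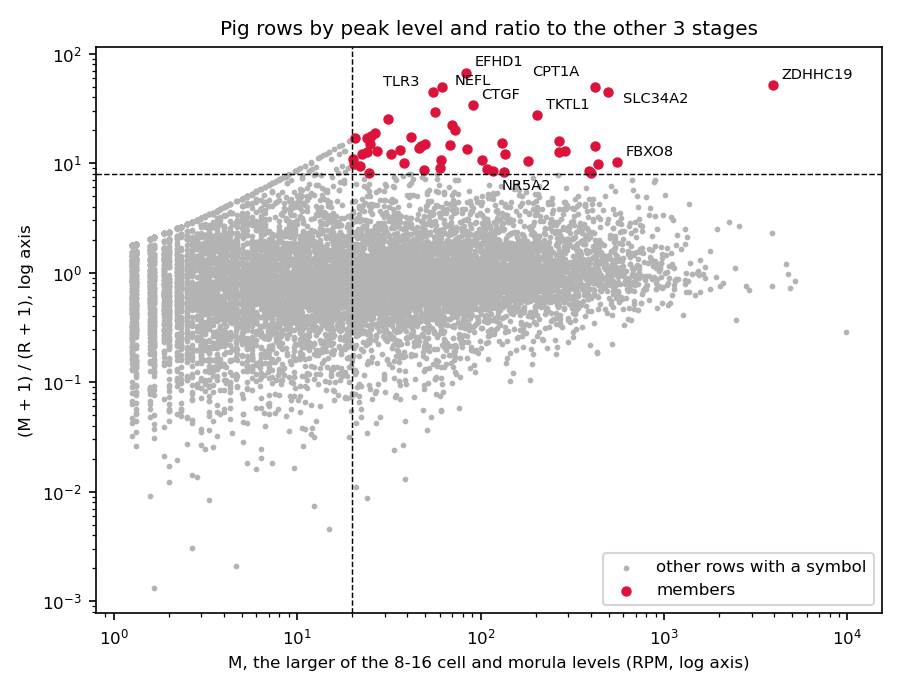
Each point is a pig row with a symbol, by M (horizontal, RPM, log axis) and by (M + 1)/(R + 1) (vertical, log axis); dashed lines mark 20 RPM and 8. The 51 members are in red, from EFHD1 with a ratio of 66.8 to TIPRL with a ratio of 8.10, and ZDHHC19 lies far to the right of the others.

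Near the limits of the rule the values ran on without a gap. Just inside the ratio limit stood TIPRL (8.10), ADAMTS20 (8.15), ZNF146 (8.35) and NR5A2 (8.42), and just outside it PORCN (7.97), KLHL13 (7.88), NAT8L (7.87) and YIPF6 (7.82). Just inside the level limit stood TRIM69 with M of 20.3 RPM, C3orf20 with 20.5 RPM, AP4E1 with 20.6 RPM and SLCO1C1 with 22.0 RPM. Just outside it stood ZNF804A (19.6 RPM), RRH (19.3 RPM), C14orf105 (19.0 RPM) and P3H2 (18.3 RPM). A further 155 rows had M of 20 RPM or more and a ratio from 4 to under 8.

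The level was higher in the morula than in the 8-16 cell library for 50 of the 51 genes, as for 55.2% of all 5515 rows with a symbol and M of 20 RPM or more. For the same 50 the 95% interval of the ratio of morula to 8-16 cell reads lay above 1 (exact conditional binomial intervals, used for all ratios below). Among those 5515 rows that interval lay above 1 in 49.6%. The exception was C3orf20, at 20.5 RPM (65 reads) in the 8-16 cell and 17.0 RPM (51 reads) in the morula library, a ratio of 0.827 (0.562 to 1.21) that does not tell the stages apart. Changes between stages were computed on the log2(RPM + 1) scale, which understates changes of low genes, and a gene was called higher or lower at a difference of 2 or more. From the 8-16 cell stage to the morula 34 of the 51 were called higher, against 12% of 10631 rows with a symbol. The median difference was 2.59 for the 51 genes and 0.15 for all rows.

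Many members already stood higher at the 8-16 cell stage than before it. From the 2-4 cell to the 8-16 cell library 26 of 48 members with at least 1 RPM were called higher, against 4.65% of 10147 rows, and the median difference was 2.21. For 40 of the 51 the interval of the ratio of 8-16 cell to 2-4 cell reads lay above 1, a count for which no share of all rows is given. From the morula to the blastocyst all 51 were called lower, against 14.3% of 10528 rows, with differences between -6.68 (SPRY4) and -3.02 (TIPRL). The rule used these same libraries, so the counts describe the shape of the peak and nothing is read from their excess over the background. Between 0% and 12.1% of the peak level was left in the blastocyst library, with a median of 1.22%.

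**Figure D2:**
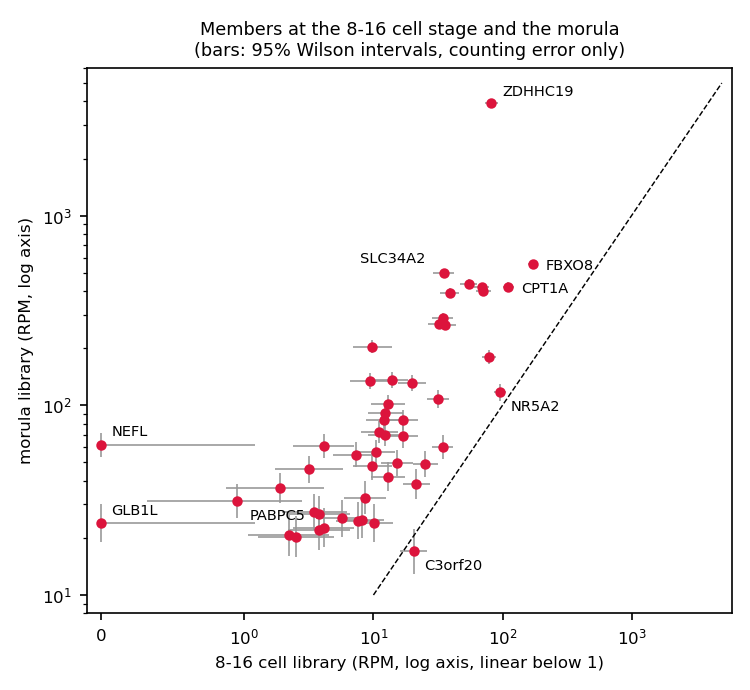
Level of each of the 51 genes in the pig 8-16 cell library (horizontal, RPM, log axis that is linear below 1) and in the morula library (vertical, RPM, log axis), with 95% Wilson intervals. The dashed line marks equal levels: C3orf20 alone lies under it, NR5A2 just above it, and NEFL and GLB1L had 0 reads at the 8-16 cell stage.

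Sorted by the known role of their products, 9 genes act in lipid, sugar and lipid-anchor metabolism, 3 in calcium handling or mitochondria, 4 are transporters or channels, 8 regulate transcription, 13 are ligands, receptors or signalling proteins, 3 belong to the matrix or cytoskeleton, and 8 act in the turnover and trafficking of RNA and proteins. For 3 genes no role is given here. This sorting was made by hand once the symbols were known.

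**Figure D3:**
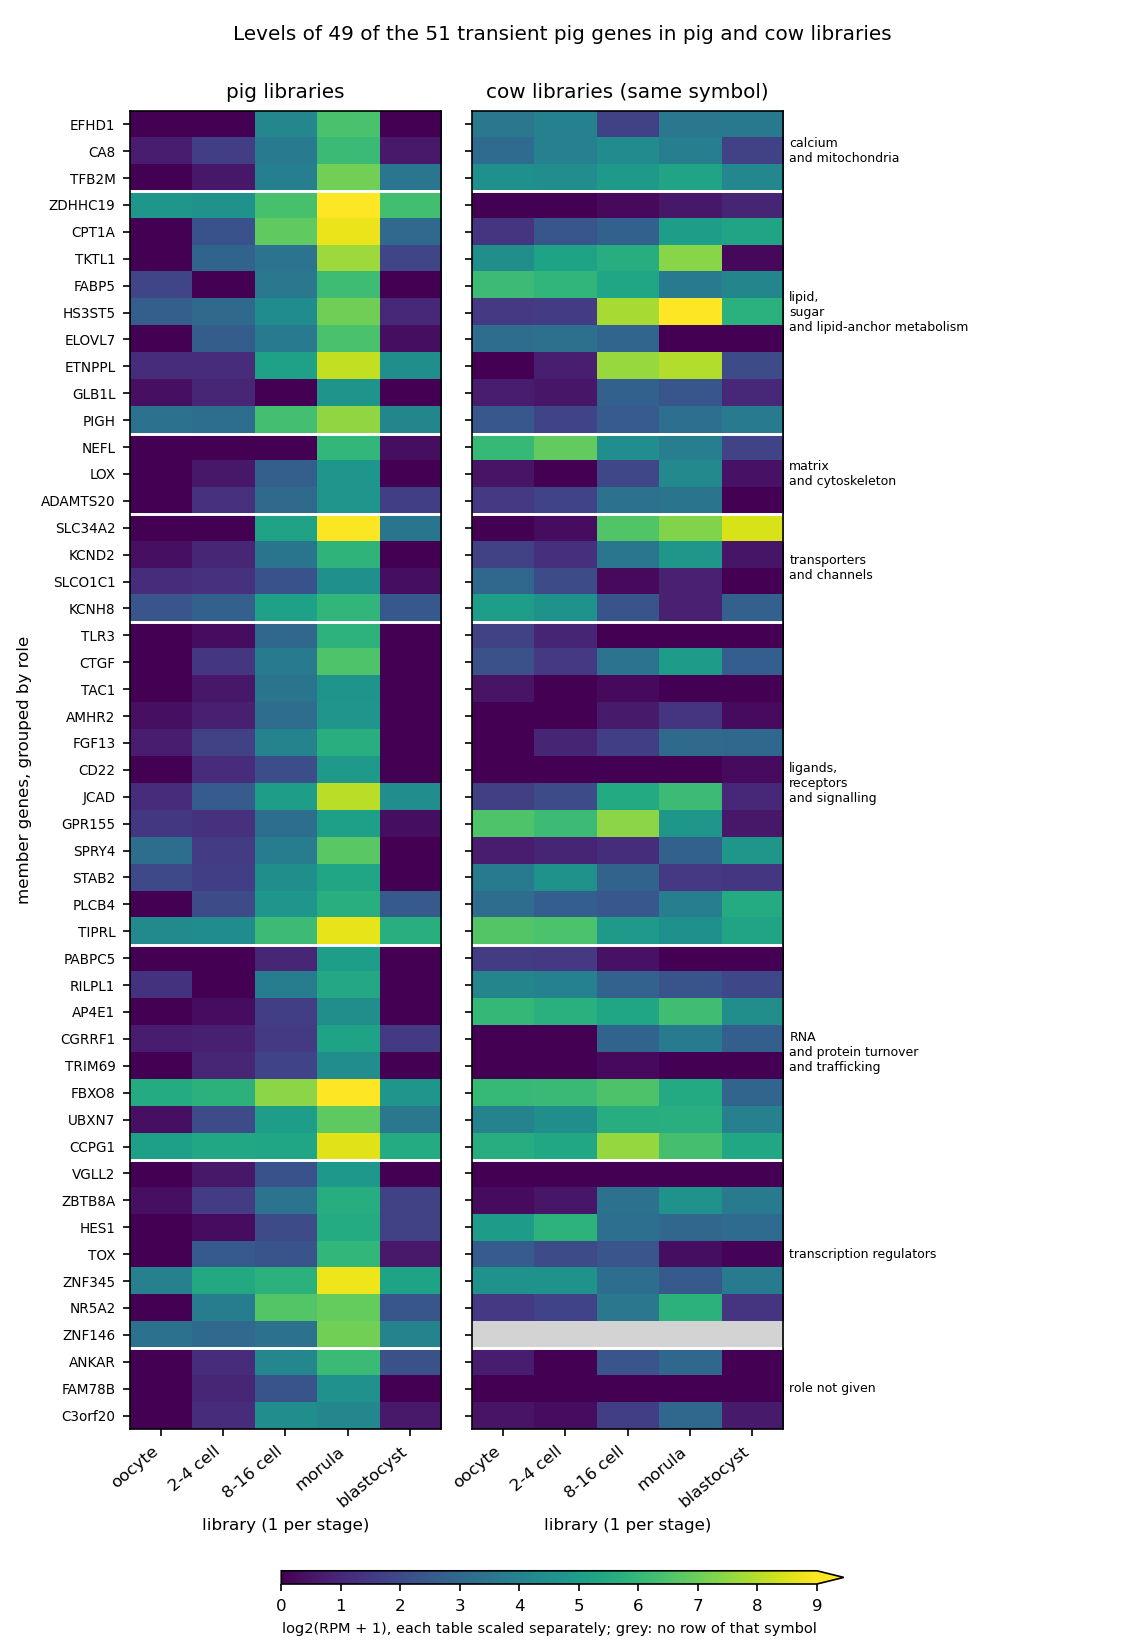
Levels of 49 of the 51 genes, grouped by role, in the 5 pig libraries (left) and of the cow rows with the same symbol in the 5 cow libraries (right), as log2(RPM + 1); colours are cut off at 9 and grey means no cow row of that symbol. In pig the morula column is the brightest for 48 of the 49 genes, whereas in cow the brightest column varies from gene to gene.

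Among the metabolic genes, ZDHHC19 took the most reads. It encodes a member of the palmitoyltransferase family, which attach fatty acids to proteins, and lies on pig chromosome 13, 133875643 to 134000847. Its level was 25.5 RPM in the oocyte, 23.4 RPM in the 2-4 cell, 82.1 RPM in the 8-16 cell, 3938 RPM in the morula (3868 to 4009) and 75.9 RPM in the blastocyst library. The morula thus stood apart from all other stages, 48.0-fold (42.4 to 54.4) above the 8-16 cell stage and 51.9-fold (46.1 to 58.6) above the blastocyst. By reads it was the row with rank 12 in the morula library, and 10 of the 11 rows above it were mitochondrial.

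CPT1A, carnitine palmitoyltransferase 1A of the outer mitochondrial membrane, which commits long-chain fatty acids to oxidation, had its largest increase earlier, from the 2-4 cell to the 8-16 cell stage. It had 0 reads in the oocyte, 3.87 RPM in the 2-4 cell, 111 RPM in the 8-16 cell, 421 RPM in the morula (398 to 445) and 7.51 RPM in the blastocyst library. The 8-16 cell level was 28.8-fold (17.5 to 50.9) above the 2-4 cell level, and the morula level 56.1-fold (38.6 to 84.7) above the blastocyst level. FABP5, a cytosolic carrier of fatty acids, had 2.66 RPM in the oocyte, 0 reads in the 2-4 cell, 11.05 RPM in the 8-16 cell, 72.6 RPM in the morula and 0 reads in the blastocyst library, at least 90.3-fold below the morula. ELOVL7, an elongase of long-chain fatty acids, went from 0 reads through 5.32, 12 and 83.9 RPM to 1 read in the blastocyst. Both were thus at or near 0 in the blastocyst, and ELOVL7 already had 22 reads at the 2-4 cell stage.

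TKTL1, a transketolase-like gene of sugar metabolism on the X chromosome, stood at 0 reads, 6.52, 9.79, 204 and 2.68 RPM from oocyte to blastocyst. The 2-4 cell and 8-16 cell levels could not be told apart (ratio 1.501, 0.867 to 2.61), and it was 20.9-fold (14.5 to 31.0) higher in the morula. ETNPPL, which breaks down phosphoethanolamine, a building block of membrane lipids, stood at 1.18, 1.21, 34.4, 288 and 21.4 RPM. HS3ST5, which adds sulfate to heparan sulfate chains, stood at 5.62, 7.73, 19.9, 131 and 1.07 RPM, and PIGH, a subunit of the enzyme that starts the synthesis of glycosylphosphatidylinositol anchors, at 9.47, 8.46, 79.0, 180.5 and 16.4 RPM. PIGH had a smaller step into the morula (2.29-fold, 1.964 to 2.67) than into the 8-16 cell stage (9.34-fold, 6.54 to 13.7). GLB1L, a relative of beta-galactosidase, was seen in the morula at 24.0 RPM (72 reads), with 1 read in the oocyte, 4 at the 2-4 cell stage and 0 at the 8-16 cell and blastocyst stages.

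EFHD1, a calcium-binding protein of mitochondria, had the highest ratio of all 51 genes (66.8). It lies on chromosome 15, 133120038 to 133170498, and had 0 reads in the oocyte and 2-4 cell libraries, 17.1 RPM (54 reads) in the 8-16 cell, 83.6 RPM (251 reads) in the morula and 0 reads in the blastocyst library, at least 104-fold below the morula. Its whole span lies within that of KCNJ13 on the opposite strand, which stood at 43.2, 32.4, 62.5, 144 and 63.5 RPM. Since the handling of strand is not stated, reads of such a pair cannot be told apart, though KCNJ13 had reads in the libraries where EFHD1 had none. CA8, which resembles carbonic anhydrases and binds the inositol trisphosphate receptor, stood at 0.592, 2.17, 12.3, 69.9 and 0.536 RPM, and shares 88.8% of its span with an unnamed row on the opposite strand that followed almost the same course (0.592, 2.90, 12, 62.3 and 0.536 RPM). TFB2M, a transcription factor of the mitochondrial genome, went from 0 reads and 0.483 RPM to 13.9, 136 and 10.46 RPM.

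SLC34A2, a sodium-dependent phosphate transporter on chromosome 8 (19493576 to 19510252), was the leading gene among transporters and channels. It had 0 reads in the oocyte and 2-4 cell libraries, 35.1 RPM in 8-16 cell embryos, 496 RPM in the morula (471 to 522) and 10.2 RPM in the blastocyst. The morula level was at least 684-fold above the 2-4 cell level and 48.7-fold (35.3 to 69.1) above the blastocyst level. KCND2, a voltage-gated potassium channel, stood at 0.296, 0.966, 10.4, 56.6 RPM and 0 reads. KCNH8, another potassium channel, had a small step between the 8-16 cell (34.4 RPM) and morula libraries (59.9 RPM, 1.74-fold, 1.37 to 2.23), against 4.14, 5.80 and 4.56 RPM in the oocyte, 2-4 cell and blastocyst libraries. SLCO1C1, a carrier of thyroid hormone, stood at 1.18, 1.45, 3.79, 22.0 and 0.268 RPM.

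The transcription regulators differed in when they came up. NR5A2, an orphan nuclear receptor with a known part in early embryos and genome activation of the mouse, lies on chromosome 10, 22727825 to 22866904. Its level was 0 reads in the oocyte, 13.0 RPM in the 2-4 cell, 95.7 RPM in the 8-16 cell, 117 RPM in the morula and 4.29 RPM in the blastocyst library. It was thus almost at its peak by the 8-16 cell stage, 7.33-fold (5.48 to 9.99) above the 2-4 cell level, and the morula was 1.22-fold higher still (1.05 to 1.43).

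HES1, a repressor downstream of Notch signalling, had 0 reads, 1 read, 3.16 RPM, 46.0 RPM and 2.41 RPM, a 14.6-fold difference (7.68 to 31.0) between the morula and the 8-16 cell stage. TOX, an HMG-box protein best known from T cells, could not be told apart between the 2-4 cell (4.83 RPM) and 8-16 cell libraries (4.11 RPM, ratio 0.850, 0.388 to 1.80) and stood at 60.9 RPM in the morula, with 0 reads in the oocyte and 2 in the blastocyst. VGLL2, a cofactor of the TEAD factors, reached 26.6 RPM in the morula (80 reads), with 0 reads in the oocyte and blastocyst. HES1, TOX and VGLL2 had at most 4.83 RPM in any library other than the morula. ZBTB8A, a BTB zinc finger gene, stood at 0.296, 1.93, 9.79, 47.6 and 2.41 RPM.

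ZNF345 and ZNF146, both zinc finger genes of chromosome 6 whose starts lie 469310 bases apart, kept clear levels outside the peak. ZNF345 stood at 14.2, 43.7, 54.6, 438 and 36.2 RPM, and ZNF146 at 9.47, 7.49, 9.48, 135 and 15.3 RPM. For both the largest increase fell between the 8-16 cell stage and the morula, 8.02-fold (6.84 to 9.45) for ZNF345 and 14.2-fold (9.82 to 21.4) for ZNF146.

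Of secreted signals and genes named after them, CTGF is a matrix-associated growth factor and a widely used target of the Hippo effectors YAP and TAZ. It lies on chromosome 1, 31673798 to 31680169. It stood at 0 reads, 1.69 RPM, 12.3 RPM, 90.6 RPM (80.4 to 102) and 0 reads, at least 113-fold lower in the blastocyst than in the morula. TAC1, the precursor of substance P, stood at 0 reads, 0.483, 10.1, 24.0 RPM and 0 reads. FGF13, which is named for its relation to fibroblast growth factors and acts inside the cell on sodium channels, stood at 0.592, 2.42, 15.2, 49.6 RPM and 0 reads. In all 3 the 8-16 cell level was already above the 2-4 cell level (7.28-fold for CTGF, with an interval of 3.22 to 19.3, and 6.27-fold for FGF13, with 3.13 to 13.9), and none had a read in the blastocyst.

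Receptors among the 51 genes included several that are best known from immune and reproductive tissues. TLR3, the endosomal sensor of double-stranded RNA (chromosome 15, 46966079 to 46978023), had 0 reads, 1 read, 7.26 RPM, 54.9 RPM (47.2 to 64.0) and 0 reads. CD22, a lectin of B cells, reached 27.3 RPM in the morula (82 reads), with 0 reads in the oocyte and blastocyst. AMHR2, the receptor of anti-Muellerian hormone, reached 24.98 RPM (75 reads), with 8.21 RPM at the 8-16 cell stage and 0 reads in the blastocyst.

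AMHR2 is also in the list of cumulus and granulosa cell markers, the somatic cells around an oocyte. 15 of the 20 genes of that list were in the pig table, 7 of the 15 had 0 reads in the morula, and their summed level there was 401 RPM, of which VCAN made up 338 RPM. Of the others with reads there, STAR stood at 13.3 RPM (39.8 RPM in 8-16 cell embryos), PTGS2 at 12.3 RPM (0.948 RPM before), CD44 at 7.33 RPM (3.79 RPM before), FSHR at 2.33 RPM, and CYP19A1 and GATM at 1.67 RPM each. The 7 at 0 reads were PTX3, TNFAIP6, CYP11A1, INHA, INHBA, INHBB and NR5A1. The part of such cells in the AMHR2 level was not tested. The summed level of the list ranged from 122 RPM at the 2-4 cell stage to 2161 RPM in the blastocyst, where PTGS2 alone stood at 1809 RPM. Among 14 markers of oviduct, uterus and blood cells, 8 had 0 reads in the morula, and the list summed to 12.3 RPM there and to between 13.4 and 27.2 RPM in the other 4 libraries.

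STAB2, a scavenger receptor for hyaluronan, stood at 2.96, 2.17, 21.5 and 38.3 RPM and at 0 reads in the blastocyst, and GPR155, a membrane protein named as a G protein-coupled receptor, at 1.78, 1.45, 8.53, 32.6 and 0.268 RPM. Signalling proteins inside the cell included JCAD, a junctional protein linked to Hippo signalling, at 1.18, 5.07, 32.2, 269 and 20.4 RPM.

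SPRY4, an inhibitor of receptor tyrosine kinase signalling that is itself induced by it, had the largest difference of the 51 genes between the morula and the blastocyst (-6.68), with 8.59, 1.93, 12.9 and 102 RPM and then 0 reads (at least 126-fold lower). PLCB4, a phospholipase C, was high in both libraries of the peak, with 25.3 RPM in 8-16 cell embryos and 49.0 RPM in the morula (1.94-fold, 1.47 to 2.58), against 0 reads, 3.14 and 4.83 RPM elsewhere. TIPRL, a regulator of type 2A phosphatases, kept the largest remainder, at 18.4, 19.8, 71.1, 400.3 and 48.5 RPM, so that 12.1% of its morula level was left in the blastocyst.

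NEFL, the light chain of neurofilaments (chromosome 14, 8990750 to 8997300), had the sharpest peak of the structural genes: 0 reads in the oocyte, 2-4 cell and 8-16 cell libraries, 61.9 RPM (186 reads, 53.7 to 71.5 RPM) in the morula and 1 read in the blastocyst. The morula level was at least 65.4-fold above that of the 8-16 cell stage. LOX, which crosslinks collagen and elastin, stood at 0 reads, 0.483, 5.68, 25.3 RPM and 0 reads, and ADAMTS20, a secreted protease, at 0 reads, 1.45, 7.58, 24.6 and 2.14 RPM. SRFBP1, 20396 bases from LOX, is no member and stood at 57.1, 26.8, 79.6, 675 and 119 RPM.

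In the group for turnover and trafficking, PABPC5, an X-linked poly(A)-binding protein whose span of 3312 bases is the shortest of the 51, had 0 reads, 0 reads, 3 reads, 31.3 RPM (94 reads) and 0 reads. FBXO8, an F-box protein, had the highest level outside the peak of this group, with 45.3, 53.9, 171, 554 and 25.5 RPM. CCPG1, a receptor for the autophagy of the endoplasmic reticulum, could not be told apart between the 2-4 cell (40.8 RPM) and 8-16 cell libraries (38.9 RPM, ratio 0.951, 0.748 to 1.21), stood at 390.0 RPM in the morula and at 32.6 and 45.3 RPM in the oocyte and blastocyst. It shares 41.6% of its span with PIGB on the opposite strand, which stood at 12 RPM in the 8-16 cell, 99.9 RPM in the morula and 27.6 RPM in the blastocyst library.

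UBXN7, a ubiquitin-binding adaptor of the segregase p97, stood at 0.296, 3.14, 31.6, 108 and 11.3 RPM, and its start lies 185885 bases from that of ZDHHC19. The ubiquitin ligases CGRRF1 and TRIM69 reached 36.6 RPM and 20.3 RPM in the morula, with 1.89 and 2.53 RPM at the 8-16 cell stage. RILPL1, which acts at cilia and lysosomes, reached 42.0 RPM in the morula from 12.9 RPM, and AP4E1, a subunit of a vesicle adaptor, 20.6 RPM from 2.21 RPM. TRIM69, RILPL1 and AP4E1 had 0 reads in the blastocyst, while CGRRF1 had 7 reads. RILPL1 shares 28.6% of its span with SNRNP35 and AP4E1 33.1% with TNFAIP8L3, which stood at 47.0 and 118 RPM in the morula, so reads of these pairs cannot be told apart either. The genes with no role given here were ANKAR (17.1, 68.6 and 3.75 RPM in the 8-16 cell, morula and blastocyst libraries), FAM78B (4.11 and 22.6 RPM, then 0 reads) and C3orf20.

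The members were spread over 16 chromosomes, with 7 on chromosome 1 and 4 on the X chromosome, TKTL1, PABPC5 and FGF13 among them. The X chromosome held 7.84% of the members and 3.57% of the 5515 rows with a symbol and M of 20 RPM or more. Their spans had a median of 50460 bases, against 56820 bases for those rows, and 28 of the 51 lay on the plus strand. No members had starts within 100 kb of each other. Coordinates are those of the authors' table, whose build is Sscrofa11.1 as far as the submitters' processing notes name a pig build. Of the 51 spans 15 overlapped another row, in every case on the opposite strand, which is 29.4%, against 36.3% of the rows with M of 20 RPM or more. For HS3ST5, JCAD, TRIM69, SPRY4 and PLCB4 the overlapping rows had 0 reads in all 5 pig libraries.

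Rows directly next to the members were called higher about as often as rows in general. Of 69 such rows with at least 1 RPM in either library, 7 were called higher from the 8-16 cell stage to the morula, which is 10.1%, against 12.5% of 12697 rows outside the mitochondrial genome and the Y chromosome. They included SRFBP1 (next to LOX), DDX55 (next to RILPL1), ASNSD1 (next to ANKAR), CCDC174 (next to C3orf20) and 2 rows without a symbol, next to TIPRL and PABPC5, of which the latter stood at 0 reads, 10.4, 19.6, 329 and 6.97 RPM.

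Lists of genes with known parts in early development held few of the 51. Of 20 genes in the pig table known from genome activation in mammals, 9 had M of 20 RPM or more and 2 were members, SLC34A2 and NR5A2. From the 8-16 cell stage to the morula 4 of 16 compared genes of that list were called higher and 2 lower (12% of all rows with a symbol in either direction), and from the morula to the blastocyst 1 of 15 was called higher and 6 lower (14.4% and 14.3% of all rows). The list's median differences were 0.99 and -1.61, against 0.15 and -0.10 for all rows. Nuclear receptors gave 1 member (NR5A2) of 18 with M of 20 RPM or more. Developmental transcription factors gave 1 (HES1) of 34, and the list of secreted ligands and their receptors 1 (FGF13) of 42. FGF13 acts inside the cell, and CTGF, TAC1, TLR3 and AMHR2 are outside that list. Its count thus describes the list and not the whole class. None of 14 immediate early and stress genes, 33 junction and adhesion genes, and 68 ribosome biogenesis genes with M of 20 RPM or more was a member, and with 0.925% of all such rows being members these counts of 0 are near the background.

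Between the 8-16 cell and morula libraries 20 of 96 ribosome biogenesis genes were called higher and 1 lower (12% of all rows in either direction), with a median of 1.11, and 4 higher and 15 lower at the step to the blastocyst (14.4% and 14.3% of all rows), with a median of -0.82. The count called lower at that step is near the background. Their summed level was 5703 RPM in 8-16 cell embryos, 11660 RPM in the morula and 4681 RPM in the blastocyst. After the morula 18 of 58 junction genes were called higher and 10 lower, the latter near the background, and 15 of 37 immediate early and stress genes higher and 3 lower. By family name, 2 of 102 solute carrier (SLC) symbols with M of 20 RPM or more were members, 2 of 11 potassium channel (KCN) symbols, 2 of 112 ZNF symbols and 1 of 14 ZBTB symbols. No member came from 54 TMEM, 32 RAB, 23 DNAJ or 11 HSP symbols. With a background of 0.925%, counts this small describe the members only.

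Cow libraries, with 3899291 to 14182046 reads and the blastocyst library the deepest, played no part in choosing the genes, so they show how far the transient pattern recurs in a second species. A cow row with the same symbol was found for 49 of the 51 (not for ZNF146), and 43 of the 49 reached 1 RPM in a cow library. ZDHHC19, VGLL2, TAC1, CD22, FAM78B and TRIM69 did not. The cow row of ZDHHC19 had at most 0.917 RPM in any library. That row covers only 71396754 to 71409483 of cow chromosome 1, against a span of 125205 bases in pig. Rows were matched by symbol alone, so such a low level is not read as a difference between the species. Of the 43 counterparts 24 had their highest cow level at the 8-16 cell stage or in the morula, which is 55.8%, against 34.2% of 10531 other shared symbols.

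The morula accounts for that difference: 19 counterparts (44.2%) had their highest cow level there, against 19.1% of the other symbols, and 5 (11.6%) at the 8-16 cell stage, against 15.1%. A further 8 counterparts were highest in the cow oocyte, 6 in the 2-4 cell embryo and 5 in the blastocyst. With genes of several kinds and 1 library a stage, these shares are descriptions without a test.

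**Figure D4:**
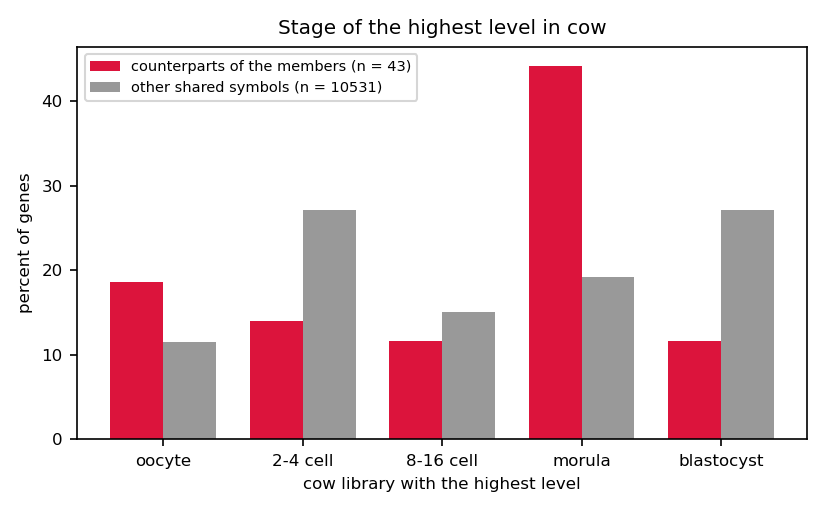
Percent of genes whose highest cow level lay in each of the 5 cow libraries, for 43 counterparts of the 51 pig genes (red) and for 10531 other symbols shared by both tables (grey). The red bar is higher than the grey one at the morula (44.2% and 19.1%) and in the oocyte (18.6% and 11.5%).

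A full transient pattern in cow was less common. With the pig rule applied to the cow libraries, 5 of the 43 counterparts met it (11.6%), against 1.31% of the other shared symbols. Of the counterparts with a cow M of 20 RPM or more it was 5 of 20 (25%), against 3.13% of 4415 symbols. The rule selected 177 cow genes in all, so the shared genes made up 9.80% of the pig list and 2.82% of the cow list. ETNPPL, JCAD, NR5A2 and HS3ST5 were among them.

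ETNPPL had the highest cow ratio (58.6), with 0 reads in the oocyte, 0.676 RPM in the 2-4 cell, 193 RPM in the 8-16 cell, 248 RPM in the morula and 3.24 RPM in the blastocyst library. The cow level differed by 0.36 (log2) between the 8-16 cell stage and the morula, whereas the same step in pig had a difference of 3.03. JCAD stood at 2.23, 3.15, 44.5, 70.8 and 0.987 RPM in cow (ratio 17.3). NR5A2 had its largest increase later in cow than in pig, with 1.83, 2.48, 10.9, 54.6 and 1.62 RPM in cow (ratio 16.0): it was called higher from the cow 8-16 cell stage to the morula (difference 2.23), whereas the same step in pig had a difference of 0.29.

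HS3ST5 stood at 1.83, 2.03, 226, 733 and 52.3 RPM in cow (ratio 13.8). KCND2 missed the cow rule by a ratio of 7.83, with 2.43, 1.35, 10.49, 25.9 and 0.423 RPM, and LOX by its level, with 0.406 RPM, 0 reads, 2.76, 17.7 and 0.353 RPM (ratio 13.3). The tables were scaled separately, so only differences between stages of 1 species are set side by side.

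**Figure D5:**
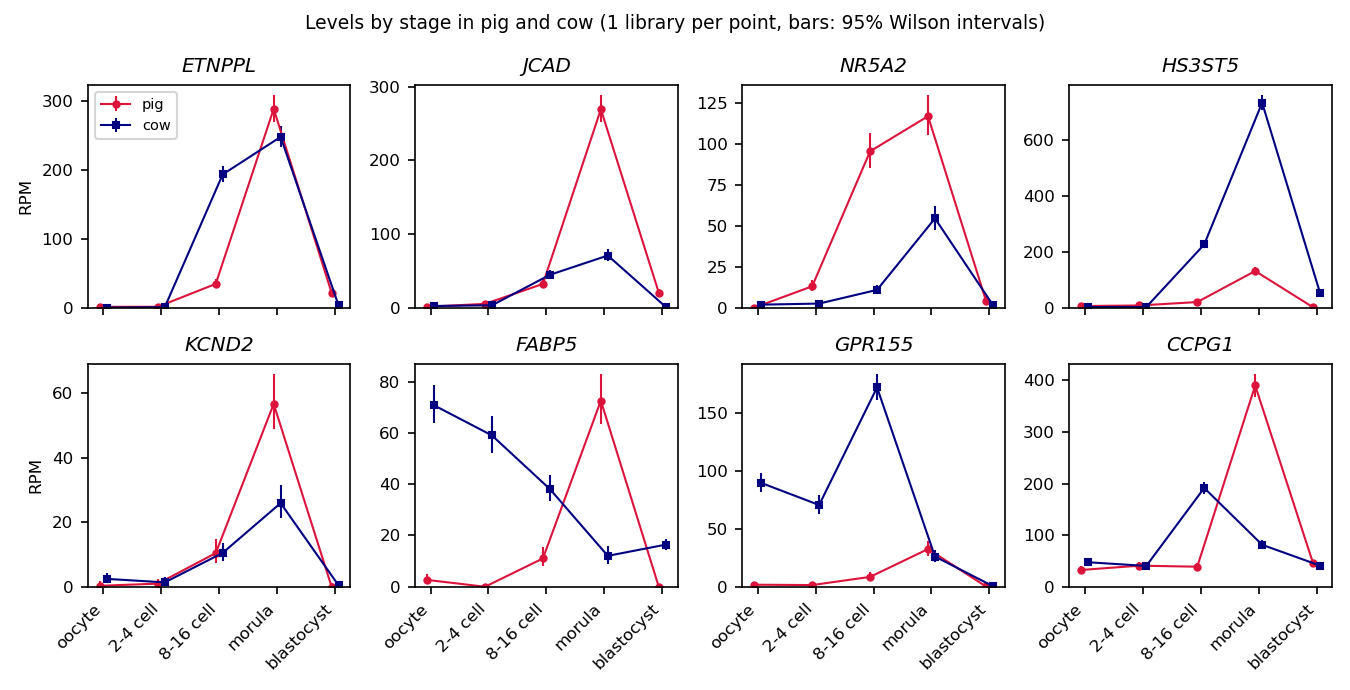
Levels by stage (RPM, linear axes that differ between panels) of 8 genes in pig (red circles) and cow (blue squares), 1 library per point with 95% Wilson intervals, each species on the scale of its own table. ETNPPL, JCAD, NR5A2, HS3ST5 and KCND2 peak in the morula in both species, whereas cow FABP5 is highest in the oocyte and cow GPR155 and CCPG1 at the 8-16 cell stage.

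Step by step, the loss after the morula recurred most often in cow. From the cow morula to the blastocyst 15 of 38 compared counterparts (39.5%) were called lower, against 11.3% of 9543 other shared symbols. The median difference was -1.26 against -0.10. 0 counterparts were called higher, a count for which no share of the other symbols is given. The cow blastocyst library stood apart at this step, with 30.2% mitochondrial reads against 9.15% in the cow morula and between 2.74% and 10.7% in the other 3 cow libraries. Scaled to reads outside the mitochondrial genome, 15 of 40 counterparts (37.5%) were called lower, against 10.3% of the other symbols, with medians of -1.22 and 0.18. With every cow library thinned to the shallowest it was 15 of 39 (38.5%), against 10.6%. The largest was that of TKTL1, from 169 to 0.141 RPM (-7.22), followed by ETNPPL (-5.87), JCAD (-5.17), NR5A2 (-4.41), KCND2 (-4.24) and GPR155 (-4.19). Between the cow 2-4 cell and 8-16 cell libraries 10 of 41 (24.4%) were called higher, against 12.2% of 9452 other symbols. 4 were called lower, and no share of the other symbols is given for that direction. SLC34A2 was among the 10, at 0.225 RPM and then 93.5 RPM, but its cow level went on to 155 RPM in the morula and 352 RPM in the blastocyst, its highest cow library.

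From the cow 8-16 cell stage to the morula, 4 of 40 counterparts were called higher (10%), against 6.91% of 9361 other symbols, with CPT1A, LOX and NR5A2 among the 4. 3 were called lower, namely ELOVL7, GPR155 and TOX, and no share of the other symbols called lower is given at this step. Cow CPT1A stayed up, at 31.0 RPM in the morula and 36.9 RPM in the blastocyst. Some counterparts were highest in the cow oocyte or 2-4 cell embryo: NEFL stood at 64.1, 113, 20.4, 13.3 and 2.61 RPM, HES1 at 30.6, 55.9, 8.65, 6.92 and 7.90 RPM, and TIPRL at 95.5, 86.3, 27.6, 21.8 and 37.0 RPM. For these genes the cow libraries showed no peak at the 8-16 cell stage or morula.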

How the data were processed

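Per the labels' protocols, RNA was isolated with a low-input column kit (PicoPure) and amplified as cDNA (Ovation RNA-Seq System V2), with a further 8 PCR cycles in library preparation. The submitters' processing notes name Trim Galore 0.6.4, HISAT2 2.1.0 and the builds Sscrofa11.1 and UMD3.1. Counting, annotation, strand handling and duplicate removal are not given in the sources used here.

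The values the authors deposited are log2 RPM, scaled to each library's total and with no correction for the length of a gene. This scale was read from the values: in each column the powers of 2 are whole multiples of 1 read (at least 99.98% within 0.1 of a read), and 0 reads is written as 0.9 of a read. The rule used the values as deposited. Levels printed are reads times the value of 1 read, with 0 reads as 0.

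Members, gene lists, roles and comparisons were chosen with earlier results of these data known. A row was compared at a step when it had at least 1 RPM in either library. Intervals are 95% Wilson intervals for levels and exact conditional binomial intervals for ratios of reads. They cover counting error only, since the protocols name no molecular identifiers. Folds against 0 reads use a floor of 3 reads per library. Cow rows were matched by symbol, taking the row with the highest mean. The genes described in full follow a rule: the 12 highest ratios, the 8 other genes with the highest M, genes highest at the 8-16 cell stage, genes in a list, genes meeting the rule in cow, and genes at the limits of the rule. All other members are given by role, and neighbouring or overlapping genes were named after their values were seen. With 1 library per stage no test was made. The script was tested on simulated data. Alternatives changed the scale, depth, pseudocount, both limits of the rule and overlapping rows. Promoter and protein sequences were not used here, and 2 members are counted but not reported by name here. Python 3.11.15, numpy 2.4.6, pandas 2.3.3 and scipy 1.17.1 were used.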

Additional observations from a re-analysis of the deposited data

Results flagged for a closer look

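3 genes were flagged because pig and cow moved in opposite directions from the 8-16 cell stage to the morula. Both changes had to be 1 or more in size in log2(RPM + 1), and the cow level 10 RPM or more. The difference was not tested, since each stage had 1 library. Other genes also moved in opposite directions. Among them were ELOVL7 (2.71 in pig, -2.93 in cow) and TOX (3.60 and -2.06), which stayed under 10 RPM in cow. FABP5 changed by 2.61 on the log2(RPM + 1) scale in pig and by -1.58 in cow, a gap of 4.19, as its cow level went from 70.8 RPM in the oocyte through 59.0, 38.1 and 12.1 RPM to 16.4 RPM. GPR155 changed by 1.82 in pig and by -2.67 in cow, a gap of 4.50 (4.495), with cow levels of 89.9, 70.7, 172, 26.2 and 0.494 RPM. CCPG1 changed by 3.29 in pig and by -1.23 in cow, a gap of 4.52, with cow levels of 47.5, 40.3, 191, 81.3 and 41.0 RPM. All 3 kept both directions under scaling to non-mitochondrial reads, quantile normalisation and thinning. GPR155 no longer met the rule in pig under quantile normalisation. CCPG1 shares 41.6% of its pig span with PIGB, whereas its cow row overlaps no other row. Its pig reads cannot be told apart from those of PIGB, at 12 RPM in the 8-16 cell and 99.9 RPM in the morula library.

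Among pig rows that carry an identifier and no symbol, which the rule leaves out, 26 of 5578 met its limits, and 24 of the 26 had their highest level in the morula. ENSSSCG00000039341 had 0 reads in the oocyte and 2-4 cell libraries, 33.5 RPM in 8-16 cell embryos, 548 RPM in the morula and 1 read in the blastocyst, a ratio of 432 that exceeds that of every named member. ENSSSCG00000040337 stood at 211, 155, 185, 2468 and 3.22 RPM, and it overlaps another unnamed row that also met the limits.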

How the results depend on the processing

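Every one of the 51 genes met the rule again when levels were scaled to gene reads outside the mitochondrial genome (73 genes found), 42 did under quantile normalisation (48 found) and 48 with all libraries thinned to the shallowest (48 found). Under all 3 settings together 41 remained. Gene reads outside the mitochondrial genome were 70.4% to 80.2% of the pig totals. Scaling to them thus raised every level while the limits stayed fixed. Keeping all 51 under that scaling is therefore a weak check, and the rise to 73 is partly a change of unit. NR5A2 and ADAMTS20 were lost under quantile normalisation and thinning, and TIPRL under thinning. AP4E1, GPR155, TRIM69, TOX, STAB2, SLCO1C1 and KCNH8 were lost under quantile normalisation but not under thinning. The number of genes depended on the limits: 80 genes with M of 10 RPM and 30 with 50 RPM, 150 with a ratio of 4 (where the rule keeps at most 150) and 17 with a ratio of 16, 22 with a pseudocount of 5 RPM, and 77 with unnamed rows kept. The share with the peak in the morula was 100% with a pseudocount of 5 RPM, M of 50 RPM or a ratio of 16, and between 93.3% and 98.0% otherwise. Cow counterparts meeting the rule numbered 9 of 62 with scaling to non-mitochondrial reads, 10 of 64 with M of 10 RPM, 18 of 126 with a ratio of 4, 0 of 14 with a ratio of 16 and 3 of 30 without overlapping rows, against 5 of 43, so the list they are counted in changed size as well. The share of counterparts highest at the cow 8-16 cell stage or morula lay between 42.9% (ratio of 16) and 61.5% (quantile normalisation). The median change of all rows from the 8-16 cell stage to the morula was 0.15, and 0.03 under quantile normalisation, a shift of -0.11. Genes with M near 20 RPM rest on about 60 reads, so their ratios are the least precise. The count of cow counterparts called lower after the morula was 15 as deposited, with scaling to non-mitochondrial reads and with thinning, the last 2 chosen after seeing the data. No paired analysis was possible because each stage had 1 library.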
